A study of Mus musculus with 10 samples.

Results

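The 81 genes described here encode subunits of the respiratory chain and of the ATP synthase that are made in the nucleus. They were measured in cerebellum of mice that lack Bmal1, a transcription factor of the circadian clock, and of wild-type littermates. The genes were chosen by symbol (Nduf, Sdh, Uqcr, Cox4 to Cox8, Atp5 and Cyc1), without Atp5s and Atp5sl, and had to reach a mean read count of at least 20 in the deposited table. By symbol alone, 84 of the 22046 genes listed there matched, and 3 of them fell below the minimum. By complex, 36 members belonged to complex I, 4 to complex II, 9 to complex III, 17 to complex IV and 15 to complex V, the ATP synthase. Ndufa4 was counted under complex I by its symbol, although its protein is a subunit of complex IV, and Cox7a2l, counted under complex IV, encodes a factor that joins complexes III and IV into supercomplexes.

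The respiratory chain sits in the inner mitochondrial membrane. Complex I takes electrons from NADH and complex II takes them from succinate, complex III passes them to cytochrome c, and complex IV hands them to oxygen. Complexes I, III and IV pump protons, and the ATP synthase lets the protons back through its membrane ring to drive the catalytic head. Most subunits are translated in the cytosol and imported, while a small core is made inside the mitochondrion, so cytosolic ribosome footprints read the synthesis of the nuclear share only. Neurons of the cerebellum, Purkinje cells above all, draw heavily on this pathway for their firing.

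Knockout animals were Bmal1-/- (KO) and their controls Bmal1+/+ (WT), both born to heterozygous parents on a C57BL/6 background, so that Bmal1 was missing throughout the body and not in a chosen cell type. The labels give neither the age, the sex nor the hour of sampling. From each animal's frozen cerebellum a digested share of the lysate gave ribosome footprints of 28 to 34 nt, and the rest gave total RNA. Libraries of KO animals 1 and 3 and WT animals 2 and 3 were compared, 2 against 2 in each kind of library. Total RNA of KO animal 2 and WT animal 1 was not analysed here. The labels call the animals biological replicates. The p-values rest on the spread between these few animals, moderated with the spread of other genes.

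Recovered depth was 41.0 M and 30.1 M footprint reads in the KO animals, against 38.1 M and 27.7 M in the WT animals. Total RNA held 38.9 M and 43.2 M reads in KO, against 25.6 M and 27.8 M in WT. Arntl, the gene of BMAL1, had 124 and 107 RPKM (a read count divided by a length and the library's depth) in KO footprints, against 258 and 295 RPKM in WT footprints. In total RNA Arntl had 267 and 272 RPKM in KO, against 179 and 179 RPKM in WT. The fall of Arntl footprints relative to its RNA passed the test (log2 fold change -1.84, SE 0.15, limma adjusted p 0.0367), and the footprints alone missed it (-1.25, SE 0.14, adjusted p 0.0589). Markers of cerebellum were present in every library, with no gene at 0 among the 16 of granule neurons and the 12 of Purkinje cells. Markers of choroid plexus, the secretory epithelium beside the cerebellum, summed to 21010 and 24110 RPKM in KO total RNA, against 11150 and 2270 RPKM in WT total RNA. Those of oligodendrocytes summed to 2401 and 2374 RPKM in KO, against 3398 and 2869 RPKM in WT. These sums compare libraries only, and their genes carry unequal weights, because RPKM in this table is comparable only within a gene. In total RNA, where limma called 4.09% of all genes, 2 of 10 choroid plexus and 3 of 16 granule neuron markers rose, and 2 of 10 microglia and 1 of 11 oligodendrocyte markers fell. Limma called 0 of 12 Purkinje markers (2 at an unadjusted p under 0.05), 1 of 10 interneuron markers (lower), 1 of 7 endothelial markers (higher), and 1 in each direction among 12 astrocyte and 6 brainstem markers. Limma-voom called 13.1% of all genes. It had 9 choroid plexus, 7 granule and 1 endothelial marker higher, and 6 microglia and 2 Purkinje markers lower. Oligodendrocyte markers were called in both directions, 1 higher and 7 lower, as were interneuron markers, 1 higher and 3 lower. In each direction it called 2 astrocyte markers and 1 brainstem marker. The part of these cell types in the values below was not tested. In bulk tissue, fewer cells of a type and less RNA per cell cannot be told apart.

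No subunit gene passed the test for a difference between genotypes in total RNA. Of the 76 members with a mean of at least 1 RPKM, 0 had a limma adjusted p under 0.05, beside 519 of all 12690 genes tested, or 4.09%. At an unadjusted p under 0.05 there were 4 members, Cox7b, Ndufa5, Atp5k and Ndufv2, each lower in KO, where the share over all genes was 22.1%. The members' differences were small and mostly negative: 55 of 76, or 72.4%, lay below 0, against 53.3% of all genes, and the median was -0.07 on the log2 scale, against -0.02 over all genes. That median was -0.12 without WT animal 2, -0.02 without WT animal 3, -0.03 without KO animal 1 and -0.08 without KO animal 3. Folds here are on the log2 (RPKM + 1) scale, KO minus WT.

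The 95% interval of the log2 fold change lay within 1 in either direction for all 76 members tested, and within 0.5 for 64 of them. The median SE over the members was 0.10. These bounds hold on the log2 (RPKM + 1) scale, which compresses the lowest genes. Cox7b2, with means of 1.15 RPKM in KO and 1.89 RPKM in WT, had an interval of -0.97 to 0.08 there and a limma-voom fold of -0.82 (SE 0.48, adjusted p 0.284).

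**Figure D1:**
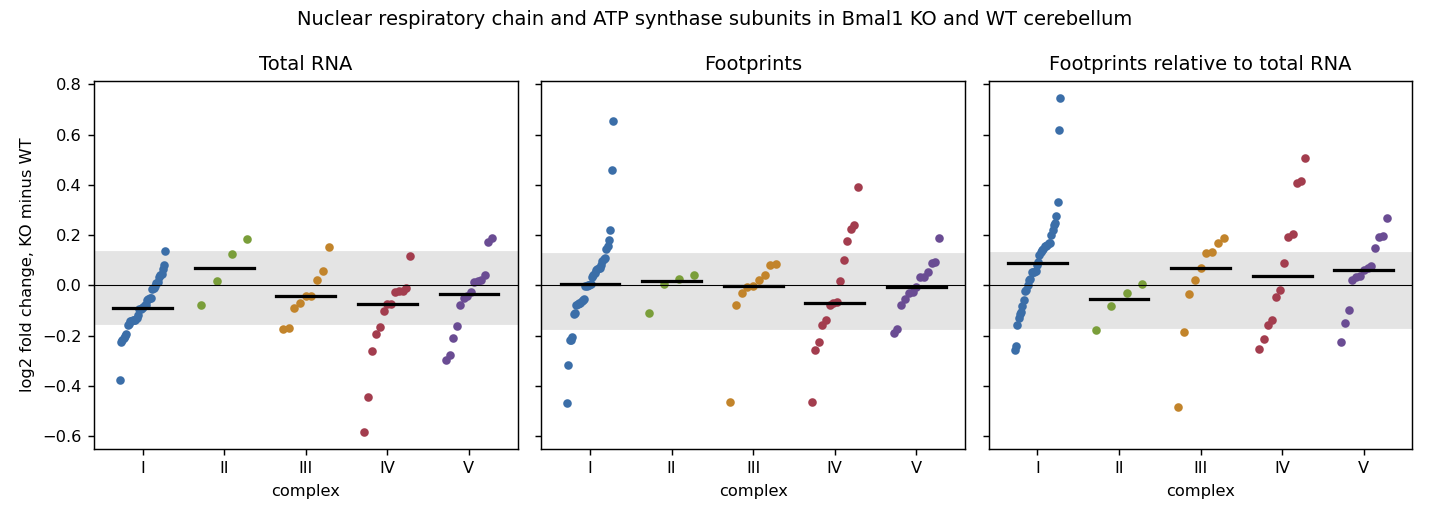
Each point is a subunit gene, sorted within its complex, and its height is the log2 fold change (KO minus WT, on log2 (RPKM + 1)) in total RNA, in footprints and in footprints relative to total RNA. Black lines are the medians of each complex and the grey band holds the middle 50 percent of all genes tested; complex I has medians of -0.09, 0.00 and 0.09, and Cox7b at -0.58 is the lowest point in total RNA.

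Complex I, the largest of the chain, had a median total RNA difference of -0.09 over 36 members. Its 7 conserved core subunits, which carry the flavin and the iron-sulfur clusters, ran between -0.23 and 0.14, with 5 of 7 below 0. Ndufs1, the largest iron-sulfur subunit, had 81.7 and 89.2 RPKM in KO total RNA, against 89.3 and 99.4 RPKM in WT. The nearest KO and WT values almost met, with no overlap (log2 fold change -0.14, SE 0.10, adjusted p 0.457). Ndufv1, which binds NADH, had 116 and 124 RPKM in KO, against 105 and 128 RPKM in WT. The KO values of Ndufv1 fell between the WT values.

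Among the 28 accessory subunits of complex I, which surround that core, 22 lay below 0 and the range was -0.38 to 0.08. The lowest was Ndufa5, an accessory subunit of the arm that faces the matrix, with 917 and 1081 RPKM in KO total RNA, against 1380 and 1211 RPKM in WT. The genotypes did not overlap, and the test was not passed (-0.38, SE 0.11, adjusted p 0.126). The core subunit Ndufv2 had 534 and 579 RPKM in KO, against 673 and 628 RPKM in WT. It too was lower in both KO animals and missed the threshold (-0.22, SE 0.08, adjusted p 0.192).

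Complex II, which also works in the tricarboxylic acid cycle, was the complex with a median above 0 in total RNA, at 0.07 over 4 members. Sdha, the flavoprotein that oxidises succinate, had 178 and 201 RPKM in KO, against 183 and 191 RPKM in WT. The KO animals bracketed the WT animals. Sdhc, a membrane anchor of the complex, had 103 and 106 RPKM in KO, against 77.6 and 108 RPKM in WT. Its fold of 0.18 (SE 0.16, adjusted p 0.535) rested on WT animal 2, and without that animal the fold was -0.05.

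In complex III the median was -0.04 over 9 members. Uqcrc2, a core protein of the matrix side, had 451 and 484 RPKM in KO total RNA, against 516 and 539 RPKM in WT. The groups were apart but not past the test (-0.17, SE 0.08, adjusted p 0.262). Uqcrfs1, the Rieske iron-sulfur protein, had 90.3 and 91.9 RPKM in KO, against 82.4 and 92.8 RPKM in WT, with KO inside the WT range. Cyc1, the cytochrome c1 that hands electrons to cytochrome c, had 284 and 268 RPKM in KO, against 232 and 266 RPKM in WT. Cyc1 was among 3 members with both KO values above both WT values, next to Atp5d and Ndufv3, whereas 30 members had both KO values below both WT values. Upward this was 3.95% of the 76 members, against 24.7% of all genes, and downward 39.5%, against 30.3% of all genes.

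Complex IV held the gene with the largest difference. Cox7b, a small transmembrane subunit whose gene lies on chromosome X (mm10, start 106015700, plus strand), had 100 and 103 RPKM in KO total RNA, against 169 and 138 RPKM in WT. Both KO animals were lower than both WT animals. The log2 fold change was -0.58 (SE 0.11, 95% interval -0.86 to -0.31), and the limma adjusted p was 0.0501, on the far side of the threshold. It stayed above the threshold without WT animal 2 (-0.44, adjusted p 0.0904), without KO animal 1 (adjusted p 0.241), without KO animal 3 (adjusted p 0.143), with no filter (adjusted p 0.151), with no variance trend (adjusted p 0.0810), with quantile normalization (adjusted p 0.0676), in a joint fit of all libraries (adjusted p 0.0545) and with a pseudocount of 0.1 (adjusted p 0.0537). It was called when the genes were filtered by a mean read count of at least 20 in place of RPKM (adjusted p 0.0371, with 4.97% of all genes called), and without WT animal 3 (-0.73, adjusted p 0.0259). Limma-voom on the recovered reads called it too (-0.61, adjusted p 0.000337), along with Ndufa5 (-0.40, adjusted p 0.00996) and Atp5k (-0.34, adjusted p 0.0274), where 13.1% of all genes were called.

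The other members of complex IV moved less. Of 13 tested 12 lay below 0, with a median of -0.08. Cox4i1, the widely expressed form of the subunit that regulates the complex, had 3503 and 3765 RPKM in KO, against 3434 and 3952 RPKM in WT. The KO values sat inside the WT range (-0.02, SE 0.09, adjusted p 0.921). Cox5a, a peripheral subunit on the matrix side, differed by -0.02 (SE 0.10, adjusted p 0.920). Cox6b1, a subunit facing the intermembrane space, had 146 and 162 RPKM in KO, against 202 and 168 RPKM in WT, with no overlap but no call (-0.26, SE 0.12, adjusted p 0.253).

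In the ATP synthase the median was -0.03 over 14 members tested. Atp5a1, the alpha subunit of the catalytic head, had 428 and 462 RPKM in KO total RNA, against 418 and 491 RPKM in WT. Atp5b, the beta subunit that carries the catalytic site, had 1496 and 1589 RPKM in KO, against 1428 and 1631 RPKM in WT. For both the KO animals fell between the WT animals. Atp5k, a small membrane subunit that helps to hold synthase dimers together, was the lowest at 16.0 and 16.7 RPKM in KO, against 20.5 and 20.2 RPKM in WT (-0.30, SE 0.10, adjusted p 0.150). Atp5d, the delta subunit of the central stalk, stood at the other end with 37.8 and 34.4 RPKM in KO, against 30.4 and 32.7 RPKM in WT (0.19, SE 0.10, adjusted p 0.334).

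**Figure D2:**
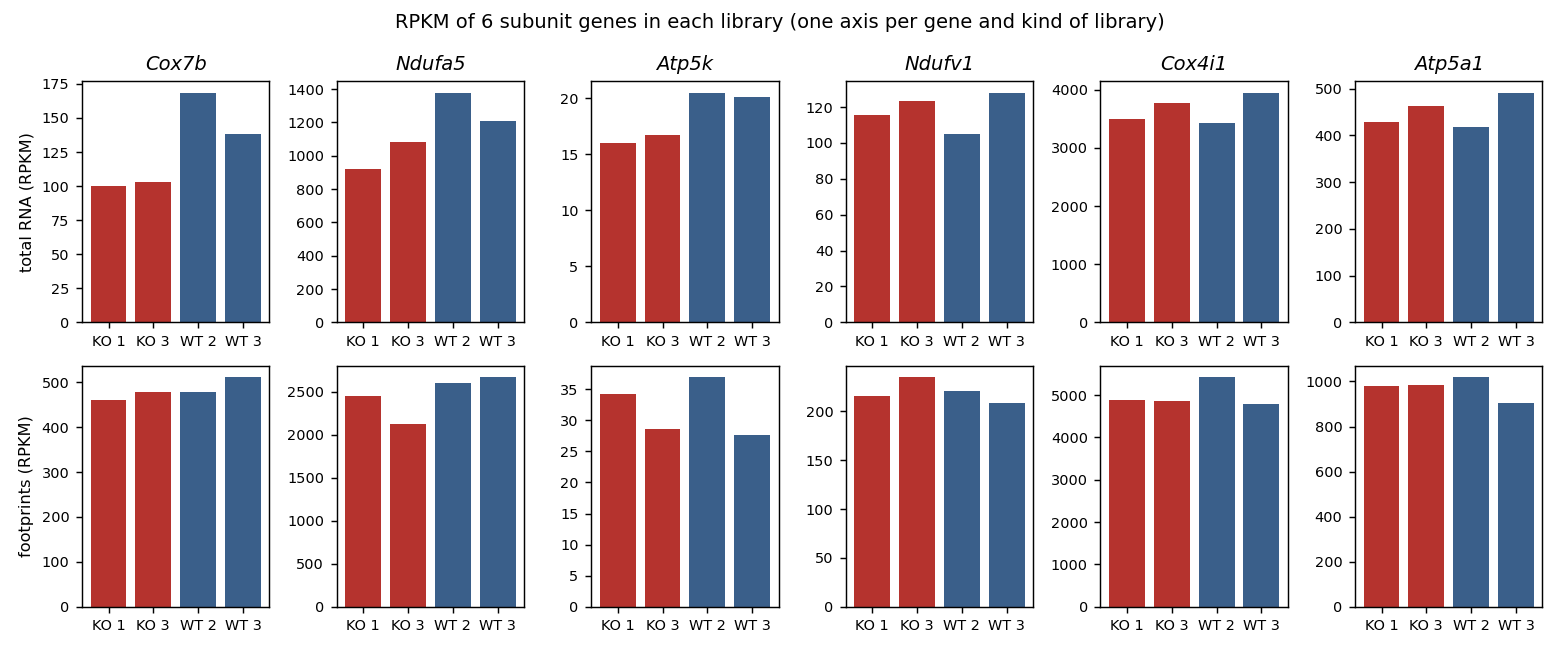
Bars are RPKM in each library, total RNA above and footprints below, with KO animals in red and WT animals in blue; every axis starts at 0 and RPKM is comparable only within a gene. Cox7b total RNA stands at 100 and 103 in KO against 169 and 138 in WT, while its footprints run from 460 to 512 over the 4 animals.

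The 5 members below the RPKM filter in total RNA included 4 isoforms of complex IV subunits known from other tissues, and one of these stood out in the recovered reads. Cox8b, the form of subunit 8 of heart and skeletal muscle, had 33 and 33 total RNA reads in the KO animals, against 4 and 4 reads in the WT animals. As RPM (reads per 1000000 recovered reads of the library) this was 0.848 and 0.764 in KO, against 0.156 and 0.144 in WT. Limma-voom with the filter on read count, a setting chosen after these values were seen, put the KO animals 2.27 higher on the log2 scale (SE 0.58, adjusted p 0.00942), with 12.7% of all genes called. On the log2 (RPKM + 1) scale, which compresses so low a gene, the same filter gave 0.17 (adjusted p 0.235).

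Footprints of Cox8b did not show that gap. They came to 1.90 and 2.92 RPM in KO, against 2.18 and 2.10 RPM in WT, and the limma-voom difference was 0.09 (SE 0.54, adjusted p 0.981), with 1.65% of all genes called. None of its coding sequence is shared with other transcripts, by the measure described below. The other muscle form, Cox6a2, had 0.488 and 0.764 RPM in KO total RNA, against 0.508 and 0.324 RPM in WT, and was not called in either setting. The genotypes of the testis form Cox6b2 overlapped in total RNA. The lung form Cox4i2 had 1.57 and 2.04 RPM in KO, against 2.11 and 2.09 RPM in WT, and was not called (limma-voom -0.23, SE 0.35, adjusted p 0.723). Atp5l, a subunit of the membrane part of the synthase, was the fifth, at 11.5 and 11.3 RPM in KO, against 8.99 and 12.1 RPM in WT.

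Ribosome footprints gave no call for any subunit either. Of 76 members tested 0 passed with limma and 0 with limma-voom on recovered reads, where 0.233% (29 of 12447) and 1.63% of all genes passed. No member had an unadjusted p under 0.05, against 10.4% of all genes. The differences were balanced in sign, with 38 of 76 below 0 (55.2% over all genes) and a median of 0.00, against -0.03 over all genes. By complex the medians were 0.00 in complex I, 0.02 in complex II, 0.00 in complex III, -0.07 in complex IV and -0.01 in complex V. The 95% interval lay within 1 on the log2 scale for 68 of 76 members, and within 0.5 for 48.

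Footprints were tight for some of the large and well-covered subunits and less so for others. Atp5a1 had 982 and 984 RPKM in KO footprints, against 1020 and 905 RPKM in WT. Sdha had 397 and 432 RPKM in KO, against 412 and 403 RPKM in WT. Uqcrc2 differed least between the 4 animals among members with at least 1000 mean reads, its highest library being 1.05 times its lowest. Atp5f1 was wider, with 426 and 313 RPKM in KO footprints, against 357 and 357 RPKM in WT. So was Atp5c1, with 230 and 177 RPKM in KO, against 212 and 194 RPKM in WT. Cox7b, the leading gene in total RNA, had 460 and 478 RPKM in KO footprints, against 478 and 512 RPKM in WT. Its genotypes touched, and the interval of its footprint difference, -0.34 to 0.19, included 0.

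Both KO values lay below both WT values in footprints for 8 members (22.6% over all genes) and above them for 6 (17.1%). On the lower side were Ndufa8, Ndufb6, Ndufa4 and Ndufa5 of complex I by symbol, Sdhb, Uqcr10, Cox6a1 and Atp5e. On the higher side were Ndufs1, Ndufs3, Ndufb4, Ndufb11, Cox6b2 and Atp5g3. Atp5e, the epsilon subunit of the central stalk, had 431 and 419 RPKM in KO, against 459 and 512 RPKM in WT (-0.19, SE 0.11, adjusted p 0.683). Atp5g3, a precursor of the c subunit that forms the proton-driven ring, had 254 and 235 RPKM in KO, against 228 and 202 RPKM in WT (0.19, SE 0.12, adjusted p 0.734).

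Among the members with the largest footprint differences, the animals of a genotype often lay far apart. Uqcr11, a small subunit of complex III, had 135 and 406 RPKM in KO footprints, against 189 and 553 RPKM in WT. KO animal 1 and WT animal 2 were low, and KO animal 3 and WT animal 3 were high, which is also the split between the deeper and the shallower footprint libraries. The genotype difference was -0.46 (SE 0.68, adjusted p 0.907), and it turned to 0.33 without KO animal 1 and to 0.31 without WT animal 3, each of which leaves unequal numbers of deeper and shallower libraries. Within the deeper pair it was -0.48 and within the shallower pair -0.45, and a fit with a term for the pair, chosen after the values were seen, gave -0.46 (SE 0.10, adjusted p 0.226). Total RNA of Uqcr11 did not share the split, with 534 and 554 RPKM in KO, against 489 and 586 RPKM in WT.

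Ndufc1, a small membrane subunit of complex I, had 256 and 113 RPKM in KO footprints, against 245 and 227 RPKM in WT, so that KO animal 3 alone was low. Ndufb4, another membrane-arm subunit, had the largest positive difference, with 126 and 82.0 RPKM in KO against 80.6 and 51.0 RPKM in WT (0.65, SE 0.29, adjusted p 0.546). The lower KO value and the higher WT value of Ndufb4 differed by under 2 RPKM, and its mean read count was 231. Ndufb4 differed by 0.63 within the deeper pair and 0.67 within the shallower pair, and with the term for the pair it was not called (SE 0.12, adjusted p 0.180). Cox7b2, a form of subunit 7b known from testis, had 3.5 and 0.7 RPKM in KO, against 3.5 and 2.3 RPKM in WT, and a mean read count of 30.8. Without KO animal 3 its fold of -0.46 turned to 0.24.

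**Figure D3:**
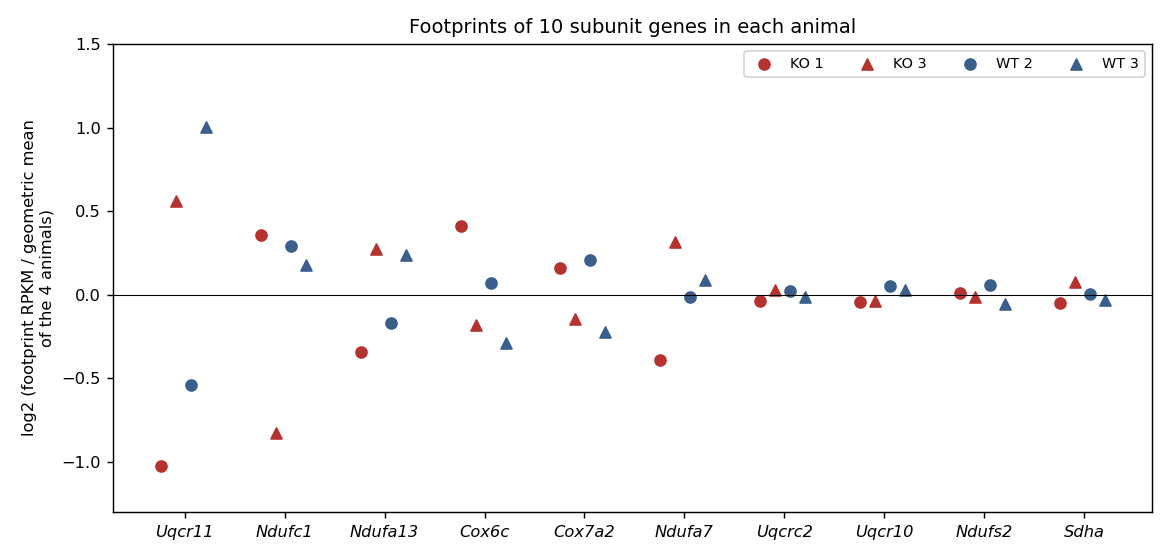
Points are the log2 ratio of footprint RPKM to the geometric mean of the 4 animals, KO in red and WT in blue, circles for the deeper and triangles for the shallower footprint libraries. The 6 genes on the left had the largest shift of the same sign between circles and triangles in both genotypes and the 4 on the right the smallest range, among members with at least 1000 mean reads; the highest library of Uqcr11 is 4.09 times its lowest and that of Uqcrc2 1.05 times.

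Translational efficiency, the footprint RPKM of an animal over its total RNA RPKM, was not called for any subunit. Among 74 members with both values above the filter 0 passed the interaction test in limma, beside 2 of 12089 genes (0.0165%). Limma-voom called 0 members and 1 gene in all (0.00835%). Cox7b was the single member at an unadjusted p under 0.05, where 4.55% of all genes stood. Here 25 of 74 members lay below 0, against 53.4% of all genes, and the median was 0.06, against -0.02. The medians were 0.09 in complex I, -0.06 in complex II, 0.07 in complex III, 0.04 in complex IV and 0.06 in complex V.

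The efficiency of Cox7b was 4.58 and 4.66 in KO, against 2.84 and 3.70 in WT. Both KO animals were higher, and the interaction had a log2 size of 0.51 (SE 0.16, p 0.0135, adjusted p 0.972). It combines the lower total RNA and the near-equal footprints given above and is not a separate measurement. Both KO efficiencies lay above both WT efficiencies in 12 members (14.2% over all genes) and below them in 2, Atp5e and Cox8a (17.5%). The 12 were Ndufs1, Ndufs3, Ndufs8, Ndufv2, Ndufa11, Ndufb8, Ndufb11, Uqcrc2, Cox6b1, Cox6c, Cox7b and Atp5j2. Of the 7 core subunits of complex I 6 had a difference above 0, with a median of 0.20 and a range of -0.13 to 0.33. The intervals were wider than in the other comparisons, within 0.5 for 23 of 74 members. With the animal as a block, since both libraries of an animal come from a single lysate, 1 gene was called in all and 0 members.

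The difference between genotypes depended on which animals were set against each other. In total RNA the members' median was 0.08 for KO animal 3 minus KO animal 1 (0.01 over all genes). It was 0.09 for WT animal 3 minus WT animal 2 (0.04 over all genes). Across genotypes it was -0.04 for KO animal 1 minus WT animal 2 (0.005 over all genes). For KO animal 3 minus WT animal 3 it was -0.08 (-0.04 over all genes). For KO animal 1 minus WT animal 3 it was -0.15 (-0.05 over all genes). For KO animal 3 minus WT animal 2 it was 0.01 (0.02 over all genes). In footprints KO animal 1 minus WT animal 2 gave -0.05 (-0.02 over all genes). KO animal 3 minus WT animal 3 gave 0.04 (-0.03 over all genes). KO animal 1 minus WT animal 3 gave 0.06 (-0.05 over all genes). KO animal 3 minus WT animal 2 gave -0.08 (-0.002 over all genes). The sign of the group's footprint difference thus depended on the pair.

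In both genotypes the subunits were more densely covered by footprints, relative to their RNA, than most genes. The median ratio over the 74 members was 2.24 and 2.12 in the KO animals, against 2.37 and 1.91 in the WT animals. Over all 12089 genes it was 0.934 and 0.953 in KO, against 0.960 and 0.956 in WT. By the median of the 4 animals 69 of 74 members exceeded the middle of all genes, among them 34 of 36 in complex I and 13 of 13 in complex V. The members' ratio showed almost no rank relation with coding length (Spearman rho 0.07 across 74 genes of the same libraries). Between genes the ratio can also depend on how much of a transcript is coding, because total RNA can hold bases outside the coding sequence. The part of this in the members' ratio was not tested.

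At the top of that scale stood Uqcrq, a small complex III subunit, with ratios of 6.995 and 6.231 in KO, against 6.585 and 5.993 in WT. Ndufc1 followed at 8.59 and 3.31 in KO, against 6.37 and 6.33 in WT. Atp5j, a coupling factor of the peripheral stalk, had 6.29 and 5.40 in KO, against 6.17 and 4.95 in WT. At the bottom was Cox7c, a small complex IV subunit, at 0.295 and 0.120 in KO, against 0.201 and 0.0673 in WT. Uqcr11, Ndufa12, Cox6c and Ndufa7 also lay below the middle of all genes.

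**Figure D4:**
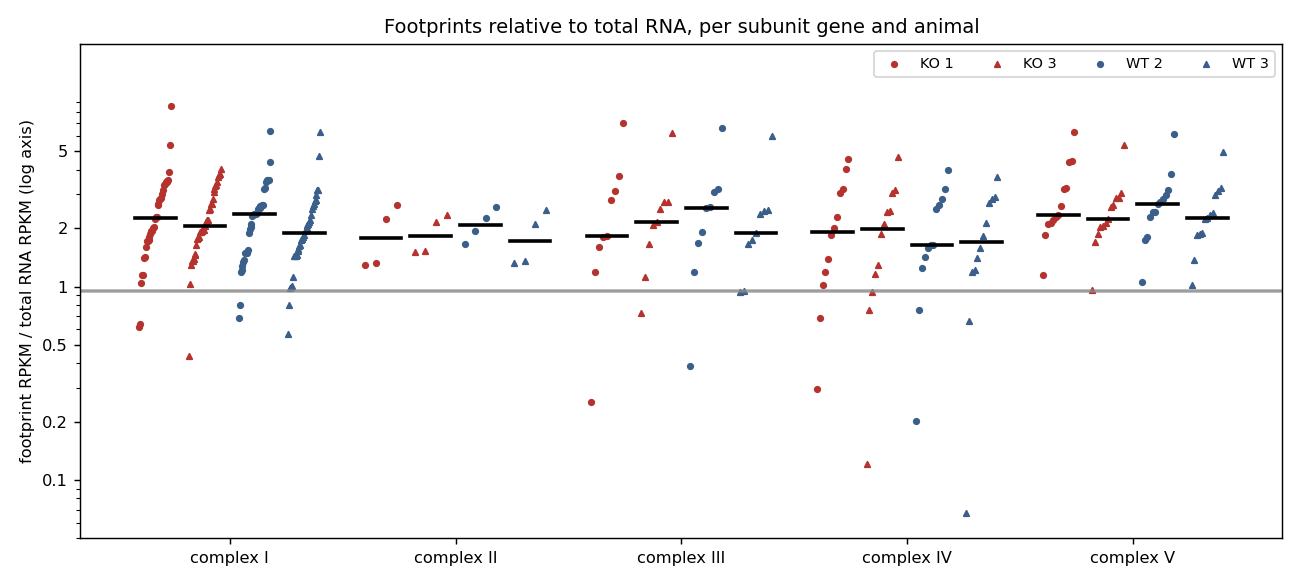
Each point is a subunit gene in a single animal, KO in red and WT in blue, plotted as footprint RPKM over total RNA RPKM on a log axis; black lines are medians per complex and animal. The thin grey band, 0.934 to 0.960, spans the medians of all 12089 genes in the 4 animals, and 69 of the 74 subunits lie above the middle of all genes.

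Footprint RPM per codon of the coding sequence put the subunits themselves in order. RPKM cannot do so in this table, because its length factor is not the gene's length. In the ATP synthase the head and stalk were far from equal. Atp5b had 5.76 and 5.66 footprint RPM per codon in KO, against 5.69 and 5.26 in WT. Atp5a1 had 4.16 and 4.20 in KO, against 4.31 and 3.83 in WT. Atp5c1, the gamma subunit that turns inside the head, had 1.68 and 1.31 in KO, against 1.55 and 1.42 in WT. Each head holds several alpha and beta subunits around a single gamma subunit, and the ratio of Atp5a1 to Atp5c1 was 2.48 and 3.21 in KO, against 2.78 and 2.70 in WT. For Atp5b over Atp5c1 it was 3.43 and 4.32 in KO, against 3.67 and 3.70 in WT. By the measure described below, Atp5c1 shares 25.1% of its coding runs with other transcripts, against 0% for Atp5a1 and 5.46% for Atp5b. The part of sharing in these ratios was not tested.

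The other single-copy stalk subunits split. Atp5d came close to Atp5c1, at 0.756 and 1.24 times its density in KO, against 0.865 and 0.944 times in WT. Atp5e, also present as a single copy, had 4.27 and 5.37 times that density in KO, against 4.92 and 5.99 times in WT. Its coding sequence has 52 codons without the stop. The part of reads at the start and stop, which weigh more in so short a gene, was not tested. The c subunit, of which the ring holds many copies, was represented by Atp5g3 at 5.54 and 5.15 footprint RPM per codon in KO, against 4.96 and 4.38 in WT.

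The common subunits of complex IV with little shared sequence were read more densely than the core of complexes I to III. Cox4i1 had 4.01 and 4.02 footprint RPM per codon in KO, against 4.45 and 3.93 in WT. Cox6b1 averaged 4.40 ± 0.32 in KO and 4.58 ± 0.30 in WT (SD, n = 2 each), and Cox7a2, the non-muscle form of subunit 7a, 4.72 ± 0.68 in KO and 4.66 ± 0.97 in WT. In complex I the 7 core subunits spanned 0.378 to 1.21 in KO, against 0.330 to 1.16 in WT, with medians of 0.790 in KO and 0.747 in WT. The core and redox subunits of complex III spanned 0.640 to 1.27 in KO, against 0.652 to 1.19 in WT. Complex II, which has each of its subunits once, ran from Sdhd at 0.670 to Sdha at 1.61 in KO, against 0.640 to 1.57 in WT. Sdhb and Sdhc came close to each other, with means of 1.06 and 1.12 in KO, against 1.14 and 1.10 in WT, and their KO animals overlapped. Ndufa4 had the highest density of all members, 11.1 and 8.55 in KO, against 11.2 and 11.3 in WT, and by its protein it belongs with complex IV.

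The pairs of isoforms in complex IV differed by more than an order of magnitude, and in the same direction in both genotypes. Cox4i2, the lung form, averaged 0.0217 footprint RPM per codon in KO and 0.0145 in WT, far below Cox4i1. Cox6a2, the muscle form, had 0.0191 and 0.0116 in KO, against 0.00813 and 0.0119 in WT, where Cox6a1 averaged 2.00 in KO and 2.33 in WT. Cox7a1, another muscle form, averaged 0.137 in KO and 0.119 in WT. Cox8b averaged 0.0345 in KO and 0.0305 in WT, where Cox8a averaged 3.18 in KO and 3.46 in WT. The 6 markers of muscle summed to 4.62 and 5.78 RPKM in KO total RNA, against 4.54 and 3.67 RPKM in WT. Such a sum compares the libraries and gives no level relative to other genes.

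**Figure D5:**
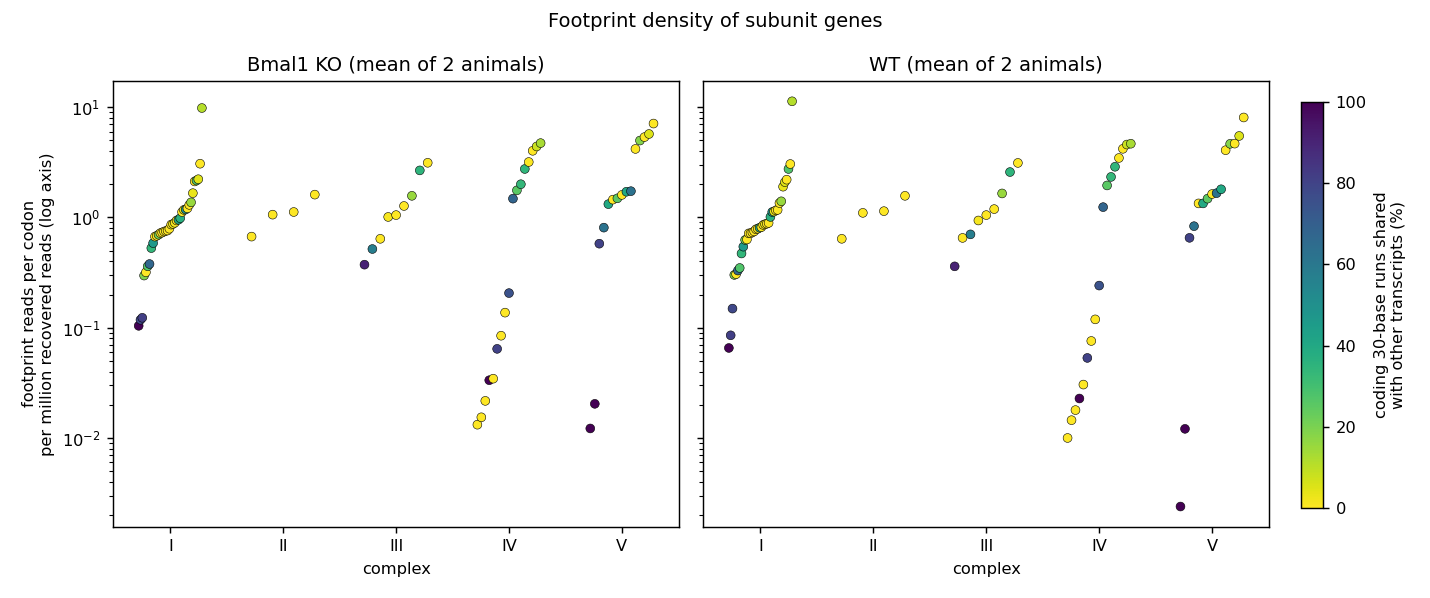
Points are subunit genes by complex, KO on the left and WT on the right, and the log axis gives the mean of 2 animals in footprint reads per codon per 1000000 recovered reads (RPM per codon). Colour is the percentage of 30-base coding runs found also in transcripts of other genes; the 4 genes at 100 percent (Ndufb4, Cox7c, Atp5l and Atp5g1) lie between 0.0122 and 0.104 in KO and between 0.00239 and 0.0655 in WT.

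A number of common subunits were nevertheless listed with few reads, and these share their coding sequence with other transcripts. Respiratory chain genes are known for processed pseudogenes, copies of the spliced mRNA inserted elsewhere in the genome. Each coding sequence was cut into overlapping runs of 30 bases, near the length of a footprint, and the runs were looked up in the transcripts of all other genes in GENCODE M21. For 32 members no run was shared, and for 43 under 5% were. For 14 members 60% or more were shared, and for 4, Ndufb4, Cox7c, Atp5l and Atp5g1, all were. The median density of the 14 was 0.164 footprint RPM per codon in KO and 0.195 in WT, against 1.01 in KO and 0.938 in WT for the 43. The 24 members between these classes had the highest medians, 1.53 in KO and 1.56 in WT, so density did not fall steadily with sharing. The relation over all 81 members was weak (Spearman rho -0.19 in both genotypes). The rare isoforms of complex IV were low with no run shared. How reads that match several places were counted is not given in the sources used here, and the part of sharing in any level was not tested.

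The precursor genes of the c subunit encode a common mature protein and differed in both sharing and reads. Atp5g1 had 31 and 77 footprint reads in KO, against 22 and 2 in WT, and 1304 and 1404 total RNA reads in KO, against 895 and 865 in WT. It lies on chromosome 11 (mm10, 96068852 to 96075670, minus strand), and of its 379 coding runs 379 were shared, with transcripts of 6 pseudogenes. Atp5g3, on chromosome 2 (73908447 to 73911326, minus strand), had no shared run and a mean read count of 14368. Footprints of Atp5g1 were too few for the RPKM filter, and in total RNA the fold was 0.02 (SE 0.10, limma adjusted p 0.934). Its transcript has 4715 nt, of which 408 are coding. The part of sharing and of transcript length in its reads was not tested. Of 90 bases at the start of the mature protein, Atp5g1 and Atp5g3 have 71 in common. They are printed here from the GENCODE M21 transcripts, with capitals at the 22 positions where Atp5g1, Atp5g3 and the related gene Atp5g2 are not all alike.
Atp5g1: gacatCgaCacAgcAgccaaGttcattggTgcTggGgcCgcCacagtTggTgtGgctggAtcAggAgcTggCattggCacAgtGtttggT
Atp5g3: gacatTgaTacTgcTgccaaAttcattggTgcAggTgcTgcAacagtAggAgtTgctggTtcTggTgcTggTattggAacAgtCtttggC

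Sharing touches some of the leading genes above. All runs of Ndufb4, 57.6% of those of Uqcr11, 34.6% of those of Cox7b and 39.7% of those of Atp5k occur in other transcripts, against 3.45% for Ndufa5. Sharing had almost no rank relation with the footprint to RNA ratio over the 74 members (Spearman rho -0.04). The filter left out Atp5g1, Atp5l and Cox7a2l, with 100%, 100% and 80.3% of runs shared. Their ratios, as the median of the 4 animals, were 0.0213, 0.131 and 0.206. Cox4i2, Cox6a2, Cox6b2 and Cox8b, with no run shared, were also left out, at 2.17, 2.80, 7.50 and 9.76. Because the filter acts on the footprints themselves, this rho cannot show how sharing bears on the ratio. Of the 39 tested members with under 5% of runs shared, all 39 lay above the middle of all genes in that ratio. So did 22 of 24 with 5% to under 60% shared, and 8 of 11 with at least 60% shared. The part of sharing in the ratio was not tested.

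BMAL1 binds DNA with CLOCK at E-boxes, so the promoters of the members were searched for the canonical form CACGTG, which reads the same on both strands. RefSeq promoters (GRCm38.p6) were matched for 65 members, with 70 promoters. Only the 250 bases before each start were searched. An E-box was present for 6 of the 65 genes, or 9.23%, against 6.86% of all 27025 genes with a promoter. The 6 were Atp5f1, Atp5g1, Atp5g3, Atp5l, Ndufa7 and Ndufv1. Windows around the E-box (in capitals) of 3 of them follow, because they carry the sequence that the missing factor is known to recognise.
Atp5g1: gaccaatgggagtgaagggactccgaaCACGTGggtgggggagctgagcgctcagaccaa
Ndufa7: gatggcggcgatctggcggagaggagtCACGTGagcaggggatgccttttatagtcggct
Ndufv1: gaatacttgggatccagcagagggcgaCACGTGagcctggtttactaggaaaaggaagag

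These windows lie at chr11:96075643-96075702 on the minus strand for Atp5g1, chr17:33824473-33824532 on the plus strand for Ndufa7, and chr19:4012892-4012951 on the minus strand for Ndufv1. Between the end of the E-box and the start lie 38 bases in Atp5g1 and 163 in Ndufv1. Total RNA of the 5 tested genes with an E-box differed by -0.16 (Atp5f1), 0.02 (Atp5g1), 0.04 (Atp5g3), -0.08 (Ndufa7) and 0.05 (Ndufv1). None was called: Atp5f1 had an adjusted p of 0.400, Ndufa7 of 0.711 and Ndufv1 of 0.864. The motifs of the factors known for driving respiratory genes were more frequent than the E-box. The motif of NRF1, GCGC and TGCGC with any base between them, was found on either strand in 17.1% of the members' 70 promoters, against 3.74% of all 32851, and CCGGAAG, an ETS motif of the kind bound by NRF2 (GABP), in 17.1%, against 6.91% of all. Ndufa5 and Atp5k had the NRF1 motif, and Cox6b1 the ETS motif. A match is a description of letters in a window and not of binding.

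Other genes of mitochondrial energy metabolism were read against the shares over all genes in total RNA, 4.09% called by limma, 22.1% at an unadjusted p under 0.05 and 13.1% called by limma-voom. None of the 42 tested assembly factors, which build the complexes, was called in total RNA (5 at an unadjusted p under 0.05, 3 lower by limma-voom), and their median was -0.09. None of 22 electron carriers and inner membrane partners was called (4 at an unadjusted p under 0.05, 0 by limma-voom), with a median of -0.13. None of 16 genes of the tricarboxylic acid cycle was called (3 at an unadjusted p under 0.05, 1 lower by limma-voom), with a median of -0.08. Of 21 regulators of mitochondrial gene expression 1 fell, Slirp (-0.46, SE 0.08, adjusted p 0.0397), whose protein binds and stabilises mitochondrial mRNAs. Of 75 mitochondrial ribosomal protein genes 1 fell, Mrps36 (-0.85, SE 0.16, adjusted p 0.0459), whose product is also known as a part of the oxoglutarate dehydrogenase complex. Of 19 genes of the import machinery, which brings the subunits into the organelle, 0 were called or had an unadjusted p under 0.05. In footprints and in efficiency no gene of these lists was called by limma or limma-voom.

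In these libraries the subunits made inside the mitochondrion spread more widely over the animals than the nuclear ones. Total RNA of the 8 mitochondrially encoded genes above the filter had a median ratio of 1.88 between the highest and the lowest animal, against 1.20 over the 76 nuclear members. mt-Nd2, a membrane subunit of complex I, had 3448 and 2305 RPKM in KO, against 4599 and 1716 RPKM in WT, with KO inside the WT range. mt-Co1, the catalytic subunit of complex IV, had 1285 and 1179 RPKM in KO, against 1619 and 1321 RPKM in WT. For none of the 8 did limma give a call or an unadjusted p under 0.05, while limma-voom called 2 of them lower. The footprint libraries also held reads of mitochondrially encoded genes, and 7 passed the filter there. All 7 lay below 0 (55.2% over all genes), with a median of -0.19, against -0.03 over all genes. Limma and limma-voom called 0 of these 7, where 0.233% and 1.63% of all genes were called.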

How the data were processed

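Ribosome footprints and total RNA of cerebellum were compared between Bmal1-/- and Bmal1+/+ mice. Bowtie, STAR and Cufflinks are named with mm10 in the submitters' processing notes, without versions or roles. The authors deposited RPKM per gene and library, a ratio table of footprint over total RNA RPKM, and a mean read count per gene, a signal that is the geometric mean of the 8 libraries' counts, per the file headers and the values. The deposited ratio equalled the RPKM ratio within 2% in all 56068 values compared. Whole reads were recovered from the deposited mean read count and the steps between low values: 99.93% of 4392 values fell within 0.1 of a whole number. The main test was limma 3.58.1 in R 4.3.3 with a variance trend on log2 (RPKM + 1), over genes with a mean of at least 1 RPKM, with Benjamini-Hochberg adjustment over all genes tested. For efficiency the tested term was genotype by library kind, over 8 libraries, with both libraries of an animal treated as independent. The scripts were tested on simulated data with known changes. Alternatives were another pseudocount, other filters, quantile normalization, no variance trend, limma-voom on recovered reads (read counts fitted with weights), a joint fit, an animal block and leaving out each animal. The pairing in the block comes from the design, since both libraries of an animal come from 1 lysate. The 95% intervals are limma's and rest on the spread between animals, moderated with that of other genes.

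Members, gene lists and tests were chosen with earlier results of these data known. Named genes were, by rule, called members, the member with the largest difference in each complex and comparison, a fixed set of core subunits and the isoform pairs. Others, such as Ndufc1, Ndufv2 and Uqcrq, were named after their values were seen. The design had been written for 10 libraries, and 8 were analysed here.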

Additional observations from a re-analysis of the deposited data

How the results depend on the processing

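No paired analysis was possible for genotype in total RNA or in footprints because KO and WT share a single replicate number. The term for deeper and shallower footprint libraries below groups them by depth, not by a label. For efficiency the animal block (replicate block) called 1 gene in all and 0 members.

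With 2 animals a group the counts over all genes were unstable, and the cause was not tested. In total RNA 519 genes were called, against 26 with no filter, 1621 with limma-voom, 1693 with limma-voom and the read count filter (chosen after seeing the data), 217 in a joint fit and 117 to 563 without 1 animal. Members called were 1 with the read count filter, 3 with limma-voom, 4 with limma-voom and the read count filter, and 0 to 1 without 1 animal. In footprints 29 genes were called, against 17 with a pseudocount of 0.1, 1 with no filter, 200 with limma-voom, 220 with limma-voom and the read count filter, 315 in a joint fit, 2 with a term for the deeper and shallower libraries (chosen after seeing the data) and 1 to 6 without 1 animal. Members called in footprints stayed at 0 in each of these settings. The members' median in total RNA ran from -0.121 without WT animal 2 to -0.022 without WT animal 3. Their median footprint difference ran from -0.057 without WT animal 3 to 0.046 without WT animal 2. In efficiency 2 genes were called, against 5 with a pseudocount of 0.1, 1 with limma-voom under either filter and 0 with no filter, with quantile normalization, with no variance trend and without any 1 animal.

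Of 305 values of named members under the alternatives 273 kept direction and side of the threshold, 8 passed it newly and 24 changed sign. In total RNA Atp5b turned to -0.001 with quantile normalization and to -0.008 with limma-voom under either filter, and Sdha to -0.005 with limma-voom under either filter. Leaving out 1 animal at a time, these members changed sign in total RNA. Ndufv1 ran from -0.10 without WT animal 2 to 0.189 without WT animal 3, and was -0.002 without KO animal 3. Sdha ran from -0.072 to 0.106, Sdhc from -0.048 to 0.418, Uqcrfs1 from -0.026 to 0.144, Cox4i1 from -0.122 to 0.081, Cox5a from -0.087 to 0.043, Atp5a1 from -0.144 to 0.089 and Atp5b from -0.081 to 0.11. In footprints Uqcr11 ran from -1.253 without KO animal 3 to 0.326 without KO animal 1, and Cox7b2 from -1.167 without KO animal 1 to 0.241 without KO animal 3. In efficiency Uqcr11 ran from -1.249 without KO animal 3 to 0.276 without KO animal 1, and Sdhc from -0.435 without WT animal 3 to 0.077 without WT animal 2.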

Other observations

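Of the 84 genes matched by symbol, Cox8c, the testis form of complex IV subunit 8, was listed at 0 in every library, as was a second entry for Atp5o. Atp5g2, another precursor of the c subunit, had a mean read count of 10.7, below the minimum of 20. Just above that minimum stood Cox6a2 at 25.6, Cox8b at 29.5 and Cox7b2 at 30.8. Among the mitochondrially encoded genes mt-Co2, mt-Co3, mt-Atp6, mt-Atp8 and mt-Nd4l were also listed at 0 in every library, although every cell uses them, so a 0 in this table cannot be read as absence.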
